A study of Mus musculus with 20 samples.

Results

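The strain-by-tissue interaction asks for which genes SJL/J and C57BL/6 mice differ in 1 muscle tissue and not, or oppositely, in the other. It was the log2 difference SJL/J minus C57BL/6 in quadriceps minus the same difference in left ventricle, fitted over 16 of the 20 arrays of the series. The other 4 arrays (SJL/J quadriceps 1 and 5, SJL/J left ventricle 1 and C57BL/6 left ventricle 5) share 1 hybridisation run and carry transcripts of the other tissue, and they were left out for that reason. Of 5551 genes tested, 956 had a strain difference particular to 1 tissue or opposite in the 2 tissues.

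The 4 groups were quadriceps of SJL/J mice (3 arrays), quadriceps of C57BL/6 mice (5 arrays), left ventricle of SJL/J mice (4 arrays) and left ventricle of C57BL/6 mice (4 arrays). All mice were untreated females of 32 to 34 weeks, bought at 4 to 6 weeks, with 5 mice per group. SJL/J is an inbred strain with a natural deletion of 171 bp in dysferlin that removes 57 amino acids from the protein; C57BL/6 has normal dysferlin. The strains differ at many other loci, so effects of strain background and of the dysferlin deletion cannot be told apart, and dysferlin itself is not read by a probe set named in the annotation used. Each RNA sample was hybridised to an Affymetrix MG_U74Av2 array, which reports 1 signal intensity per probe set.

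Dysferlin is a membrane protein of muscle fibres that helps to reseal tears in the sarcolemma. Where it is lacking, limb muscle goes through rounds of fibre damage, inflammation, regeneration and fatty replacement, while the heart, which also expresses dysferlin, is affected later and less. Quadriceps consists mostly of fast glycolytic fibres, whereas the left ventricle depends on mitochondrial oxidation of fatty acids and uses heart-specific isoforms of many proteins.

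The tissue labels of the 16 arrays held against their markers. Tnnt2, the heart troponin T, read 5650 to 8483 on the 8 left ventricle arrays and 32.4 to 1182 on the 8 quadriceps arrays. Its 2 highest quadriceps values, 1182 on SJL/J array 3 and 546.3 on C57BL/6 array 2, show some heart RNA there too. Myh4, a fast myosin of limb muscle, read 11060 to 40130 in quadriceps and at most 777.2 in left ventricle. That highest value, on C57BL/6 array 1, shows some limb muscle RNA there. The other left ventricle arrays of the fit read 2.2 to 102.4. The ratio of the 5' to the 3' probe set of Gapdh, a measure of RNA integrity and labelling length, averaged 0.258 ± 0.109 in SJL/J left ventricle and 0.781 ± 0.0813 in C57BL/6 left ventricle (SD, n = 4 each). In quadriceps it averaged 0.586 ± 0.0809 in SJL/J (SD, n = 3) and 0.831 ± 0.216 in C57BL/6 (SD, n = 5). The SJL/J left ventricle arrays were also the only ones of their hybridisation run, as were the C57BL/6 left ventricle arrays, so in left ventricle strain and run cannot be told apart within the fit. In quadriceps, C57BL/6 array 4 shared a run and a chip lot with the SJL/J arrays, while C57BL/6 arrays 1, 2, 3 and 5 were the only ones of chip lot 1, so lot and strain are nearly the same split there.

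**Figure D1:**
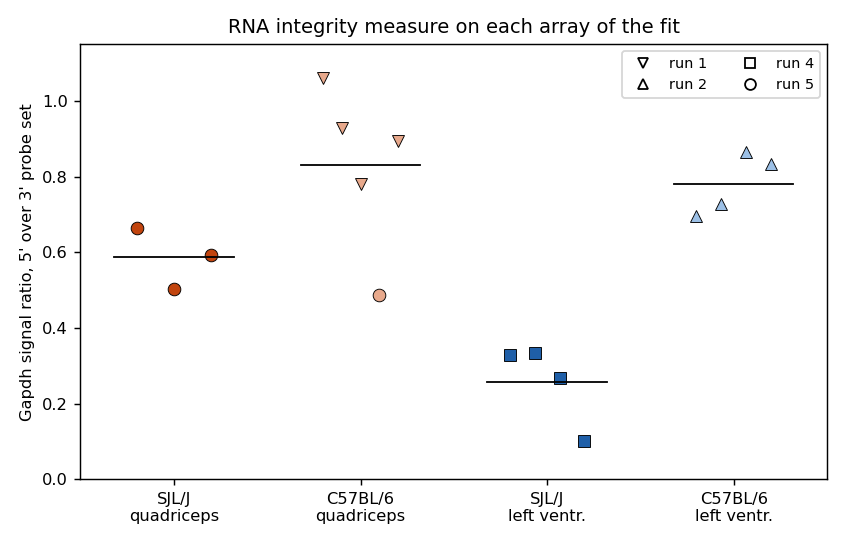
Signal ratio of the 5' over the 3' Gapdh probe set (vertical axis, no unit) on each of the 16 arrays, by group, with group means as lines and the marker shape giving the hybridisation run. The 4 SJL/J left ventricle arrays, between 0.101 and 0.335, lie below every other array.

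The interaction was called for 1113 genes, 20.1% of those tested, at a Benjamini-Hochberg adjusted p under 0.05 (limma). In 642 genes (11.6%) the quadriceps difference lay above the left ventricle difference, and in 471 (8.48%) below it. The strain difference was called in quadriceps for 18.8% of all genes (10.4% higher and 8.45% lower in SJL/J) and in left ventricle for 22% (9.67% higher and 12.3% lower). The arrays of the strains did not overlap for 22% of all genes in quadriceps and for 35% in left ventricle. By both tests together, 207 genes (3.73%) were higher and 179 (3.22%) lower in SJL/J in quadriceps, with no call in left ventricle. In left ventricle 154 genes (2.77%) were higher and 301 (5.42%) lower in SJL/J, with no call in quadriceps. The difference was called in both tissues with opposite signs in 115 genes: 58 (1.04%) were higher and 57 (1.03%) lower in SJL/J quadriceps. A further 26 genes (0.468%) moved the same way by different amounts and 131 (2.36%) had no call in either tissue, and these are not described. A missing call in the other tissue does not show that the strains are alike there, so its 95% confidence interval is given for the leading genes. Leaving out C57BL/6 quadriceps array 4 raised the number of called interactions to 1811. This array has the lowest Gapdh ratio of its group and is its only one in the run and chip lot of the SJL/J quadriceps arrays. Its summed signal of 20 limb muscle markers was 394400, against 124100 to 184700 on the other C57BL/6 quadriceps arrays. Without array 4 strain, run and lot are the same split in quadriceps, and the reason for the rise was not tested. With chip lot in the fit 1205 interactions were called, but only 594 of the 1113 and 404 of the 956 class memberships were kept.

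**Figure D2:**
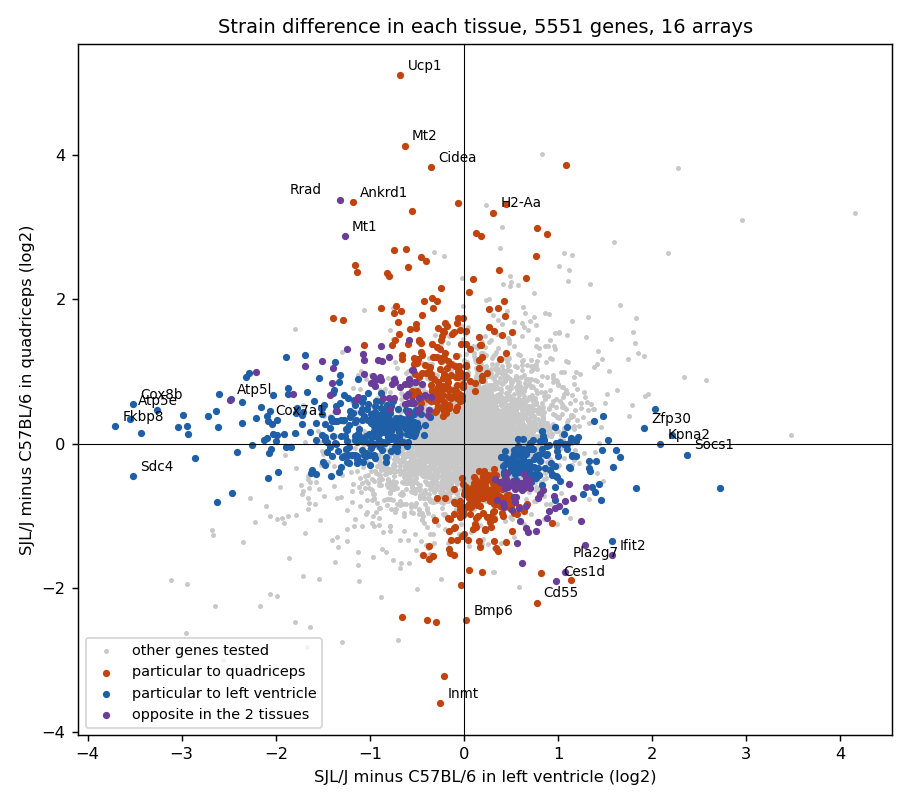
Each point is 1 of 5551 genes, placed by its SJL/J minus C57BL/6 difference in left ventricle (horizontal, log2) and in quadriceps (vertical, log2). The 386 quadriceps genes lie near the vertical axis, the 455 left ventricle genes near the horizontal axis and the 115 opposite genes in the upper left and lower right.

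The metallothioneins, small proteins that bind zinc and copper and are induced by metals, glucocorticoids and oxidants, had among the largest quadriceps-side interactions. Their promoters are shown because both genes moved strongly in the same tissue. The sequences are from RefSeq (GRCm38.p6), 250 bases before to 50 after each start, with matches to TGCACNC or TGCGCNC, the core of the metal response element, in capitals on either strand. Mt1 lies at chr8:94178839-94179138 and Mt2 at chr8:94172368-94172667, both on the plus strand.
Mt1: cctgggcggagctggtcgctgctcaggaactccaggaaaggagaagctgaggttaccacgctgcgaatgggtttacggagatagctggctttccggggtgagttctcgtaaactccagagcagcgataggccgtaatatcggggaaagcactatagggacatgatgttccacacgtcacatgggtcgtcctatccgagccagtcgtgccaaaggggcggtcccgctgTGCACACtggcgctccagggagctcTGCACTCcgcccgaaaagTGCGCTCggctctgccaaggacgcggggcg
Mt2: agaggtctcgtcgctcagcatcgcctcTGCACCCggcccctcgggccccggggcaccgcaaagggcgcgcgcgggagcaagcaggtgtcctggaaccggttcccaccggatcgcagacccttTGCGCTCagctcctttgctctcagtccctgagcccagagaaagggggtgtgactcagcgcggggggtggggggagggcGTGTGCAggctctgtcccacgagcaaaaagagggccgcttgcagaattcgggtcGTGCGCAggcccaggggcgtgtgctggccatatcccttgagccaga
The windows hold 3 matches for Mt1 and 4 for Mt2. Of 32851 promoter windows of the same length, 1.97% hold at least 3 such matches and 0.517% at least 4. A match is a string of letters and was not tested for function.

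Mt2 signal was 5054, 6105 and 7615 on the SJL/J quadriceps arrays, against 329.7, 641.1, 198.9, 366.6 and 353.8 on the C57BL/6 quadriceps arrays. In left ventricle it was 550.1, 524.5, 465.8 and 444.3 in SJL/J, against 458.3, 1065, 907.9 and 774.9 in C57BL/6. The quadriceps groups were far apart and the left ventricle groups overlapped. The strain difference was 4.13 ± 0.30 in quadriceps and -0.63 in left ventricle (95% interval -1.23 to -0.03), and the interaction was 4.76 ± 0.41 (log2, SE, adjusted p = 1.68e-06). Mt1 was opposite in the tissues. It read 857.7, 1495 and 1930 in SJL/J quadriceps, against 110.4, 167.2, 145.7, 406.3 and 192.8 in C57BL/6 quadriceps. The left ventricle values were 553, 714.6, 590 and 627.3 in SJL/J, against 1075, 1760, 1583 and 1633 in C57BL/6. Neither tissue's groups overlapped for Mt1, with SJL/J above in quadriceps and below in left ventricle. Its difference was 2.88 ± 0.32 in quadriceps and -1.27 ± 0.31 in left ventricle. On the pair of left-out left ventricle arrays, which share a run, Mt1 differed by -1.14 and Mt2 by -0.03.

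Of 14 tested genes of the acute phase and metallothionein list, 6 were in a described class (42.9%, against 17.2% of all genes), all of them higher in SJL/J quadriceps. The list's median difference was 0.93 in quadriceps and 0.14 in left ventricle, where the medians over all genes were 0.08 and 0.05. Serpina3n, a secreted protease inhibitor of the acute phase, read 225.7, 231.2 and 274.7 in SJL/J quadriceps, against 54.8, 18.1, 82.5, 54.4 and 50 in C57BL/6 quadriceps. Its difference was 2.38 ± 0.42 in quadriceps and -1.13 in left ventricle (95% interval -1.99 to -0.28), where the groups overlapped. With hybridisation run as a random block its interaction was no longer called (adjusted p = 0.112).

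Rrad and Ankrd1, which the heart normally expresses far more than limb muscle, both rose in SJL/J quadriceps. Rrad encodes a small GTPase that restrains voltage-gated calcium channels. It read 947.5, 1217 and 1356 in SJL/J quadriceps, against 88.5, 204.8, 92.3, 94.8 and 108.5 in C57BL/6 quadriceps. In left ventricle it read 969.1, 946, 1139 and 773 in SJL/J, against 2704, 2265, 2686 and 1868 in C57BL/6. The SJL/J values of both tissues thus fell in a like range, while the C57BL/6 tissues stood far apart. The difference was 3.38 ± 0.24 in quadriceps and -1.31 ± 0.23 in left ventricle, with an interaction of 4.69 ± 0.33 (adjusted p = 1.29e-07). Ankrd1 encodes a stretch-responsive ankyrin repeat protein that binds titin and enters the nucleus. It read 1577, 1252 and 1538 in SJL/J quadriceps, against 151.9, 669.2, 118.7, 43.8 and 111.7 in C57BL/6 quadriceps. Left ventricle gave 2719, 2155, 3086 and 1972 in SJL/J, against 5445, 6063, 5777 and 4957 in C57BL/6. No groups overlapped in either tissue, although the left ventricle difference of -1.18 ± 0.51 was not called (adjusted p = 0.105). The C57BL/6 quadriceps array highest for both genes, array 2, is the one with heart transcripts. Without it and SJL/J quadriceps array 3 the interaction was 4.88 for Rrad and 5.19 for Ankrd1.

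The other leading genes higher in SJL/J quadriceps included Tmsb10, Tubb6, Nes and S100a13. Tmsb10, a thymosin that sequesters actin monomers, read 1433, 1164 and 1793 in SJL/J quadriceps, against 355.2, 319.1, 232, 340.4 and 395.2 in C57BL/6 quadriceps. Its left ventricle groups overlapped (difference -0.25, 95% interval -0.60 to 0.11). Tubb6, a beta tubulin that rises in regenerating fibres, differed by 1.87 ± 0.15 in quadriceps and 0.27 in left ventricle (95% interval -0.03 to 0.56), on a probe set marked as shared between related transcripts. Nes, the intermediate filament nestin of immature muscle, differed by 1.06 ± 0.14 and -0.36 (95% interval -0.65 to -0.07) in the same order. S100a13, a calcium-binding protein that takes part in the release of growth factors, differed by 2.10 ± 0.15 in quadriceps and 0.06 in left ventricle. Slc4a3, an anion exchanger of muscle, differed by 1.61 ± 0.15 and -0.28, and Mid1ip1, a regulator of fatty acid synthesis, by 1.67 ± 0.18 and -0.20. The SJL/J quadriceps values of these 6 genes lay above all C57BL/6 quadriceps values. A second, dimmer Mid1ip1 probe set placed the difference in the other tissue, at 0.30 in quadriceps and -2.44 in left ventricle.

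**Figure D3:**
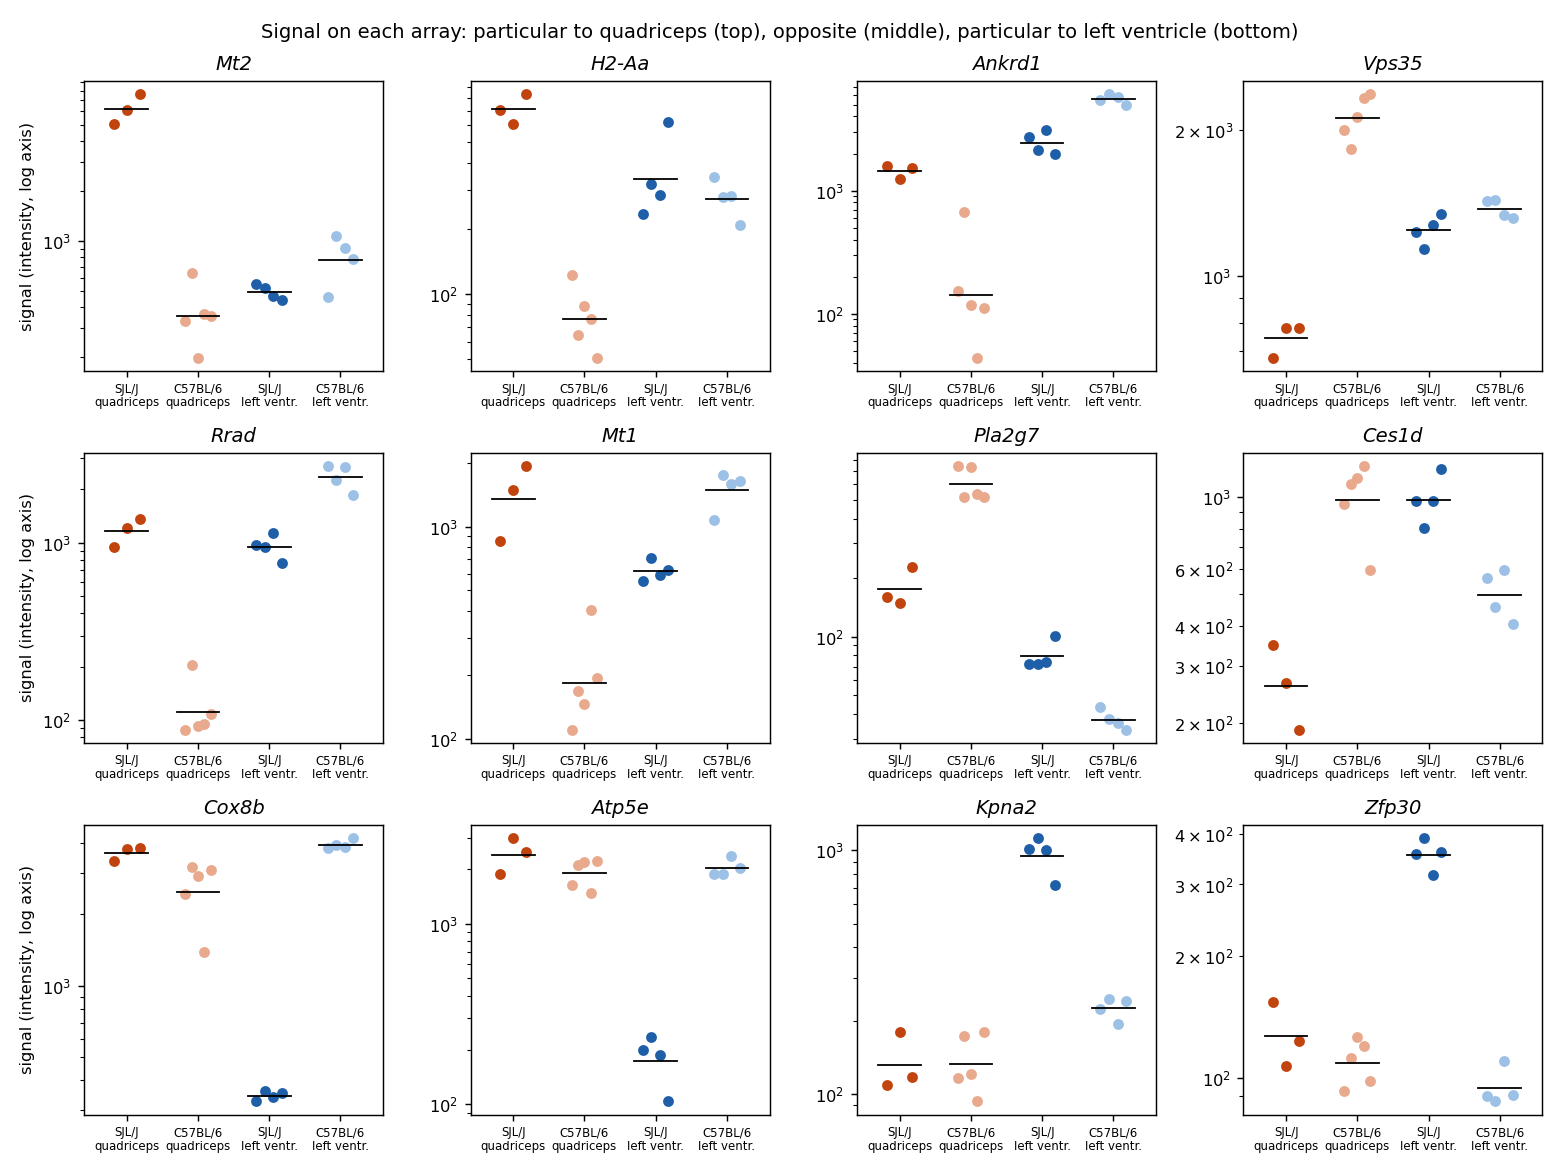
Signal intensity (vertical log axes) of 12 genes on each of the 16 arrays, grouped as SJL/J quadriceps, C57BL/6 quadriceps, SJL/J left ventricle and C57BL/6 left ventricle, with geometric means as lines. The quadriceps groups separate in the upper row, both tissues separate in opposite directions in the middle row, and the left ventricle groups separate in the lower row.

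Macrophage genes were higher in SJL/J quadriceps and mostly not in left ventricle. Of 19 tested macrophage markers 9 were in a described class (47.4%, against 17.2% of all genes), all 9 higher in SJL/J quadriceps. Of these 7 had no left ventricle call, a class that holds 3.73% of all genes. The median difference of the list was 1.55 in quadriceps and 0.24 in left ventricle. The summed signal of the 19 genes was 4069 to 5620 in SJL/J quadriceps, against 1600 to 2452 in C57BL/6 quadriceps. In left ventricle the sums were 3666 to 5306 in SJL/J, against 3000 to 4189 in C57BL/6, and these ranges overlap. In such bulk RNA a change in the number of cells of a type and a change in RNA per cell cannot be told apart.

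Ctss, a lysosomal protease of antigen-presenting cells, read 869.6, 534.7 and 878.6 in SJL/J quadriceps, against 136.9, 108.1, 64.6, 52.5 and 139.8 in C57BL/6 quadriceps. It read 375.5, 437.9, 403.6 and 753 in SJL/J left ventricle, against 340, 295.1, 304.5 and 189.2 in C57BL/6 left ventricle. SJL/J was above in both tissues, by 2.99 ± 0.33 in quadriceps and by 0.78 in left ventricle (95% interval 0.11 to 1.44). C1qa, a chain of the complement initiator C1q that macrophages make, differed by 1.90 ± 0.31 in quadriceps and -0.72 in left ventricle (95% interval -1.36 to -0.08). Its partner chain C1qc was called in both tissues with opposite signs, 1.20 ± 0.23 and -0.80 ± 0.22, and so was Cd68, a lysosomal macrophage glycoprotein, at 1.02 ± 0.19 and -0.55 ± 0.19 on a shared probe set. The third chain, C1qb, differed by -0.07 in quadriceps (adjusted p = 0.933) and -0.38 in left ventricle, with no call. With run as a random block the interactions of Ctss (adjusted p = 0.0735), C1qc (0.091) and Cd68 (0.0765) were not called.

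Antigen presentation by MHC class II, the display of extracellular peptides to helper T cells, showed a like pattern in some genes. Of 7 tested class II genes 3 were higher in SJL/J quadriceps without a left ventricle call, which is a share of 42.9% in a described class, against 17.2% of all genes. The list's median difference was 1.88 in quadriceps and 0.31 in left ventricle. H2-Aa, the alpha chain of the I-A molecule, read 701.9, 608 and 832.5 in SJL/J quadriceps, against 121.9, 64.5, 88.2, 76.2 and 50.7 in C57BL/6 quadriceps. In left ventricle H2-Aa read 233.1, 320.2, 284.2 and 618.5 in SJL/J, against 344.6, 278.3, 281.1 and 207 in C57BL/6. The quadriceps groups were apart and the left ventricle groups overlapped, with an interaction of 2.90 ± 0.41 (adjusted p = 0.000166). H2-Ab1, the matching beta chain, differed by 2.68 ± 0.47 and -0.74 (95% interval -1.71 to 0.22), and the invariant chain Cd74 by 1.88 ± 0.30 and 0.36 (95% interval -0.24 to 0.97). The interactions of H2-Ab1 (adjusted p = 0.215) and Cd74 (0.16) were not called with run as a random block. The H2 haplotypes of the strains differ, and the effect of sequence differences under the probes was not tested. Of 22 interferon response genes 4 were in a described class (18.2%, close to the 17.2% of all genes), and the list's medians were 0.81 in quadriceps and 0.68 in left ventricle.

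Some fat cell genes were higher in SJL/J quadriceps as well. Of 22 tested adipocyte genes 7 were higher in SJL/J quadriceps without a left ventricle call (3.73% of all genes were), and 3 were lower in SJL/J left ventricle without a quadriceps call (5.42% of all genes). The 3 were Slc2a4, Cox7a1 and Cox8b, of which Cox7a1 and Cox8b are heart and muscle isoforms that the oxidative phosphorylation list also holds. They are therefore not particular to fat cells. With these 3 the described classes made 45.5% of the list, against 17.2% of all genes. The median difference of the list was 0.81 in quadriceps and -0.24 in left ventricle. On the left-out left ventricle pair the list's median was 0.35, on the other side of 0. Both arrays of that pair carry limb muscle RNA. Ucp1, the uncoupling protein of brown fat, read 1248, 317.1 and 115.2 in SJL/J quadriceps, against 7.2, 8.8, 5.7, 21.1 and 15.8 in C57BL/6 quadriceps. Left ventricle gave 5.4, 29, 11.6 and 13.6 in SJL/J, against 23.5, 33.6, 8 and 25.5 in C57BL/6. The SJL/J quadriceps arrays were spread widely, but each lay above every other array of the fit. On the left-out left ventricle pair Ucp1 read 77.8 in SJL/J and 17.2 in C57BL/6, a difference of 2.18. Cidea, which enlarges lipid droplets in brown fat and is also expressed in heart, read 872, 311.8 and 134.8 in SJL/J quadriceps, in the same order of arrays, against 10.9, 21.5, 37.5, 69.1 and 11.2 in C57BL/6 quadriceps. Its left ventricle difference was -0.35 (95% interval -1.50 to 0.80), and the left-out left ventricle pair differed by -0.03. The lipid enzymes Fasn (1.52 in quadriceps, -0.69 in left ventricle) and Lipe (1.23 and -0.66) had interactions of 2.21 ± 0.45 and 1.89 ± 0.44. The summed signal of the 22 genes, the bright Cox7a1 and Cox8b included, was 22340 to 37990 in SJL/J quadriceps. In C57BL/6 quadriceps it was 19700 to 29440, so these sums overlap. With run as a random block the interaction of Ucp1 was 5.17 (adjusted p = 0.162) and that of Cidea 3.25 (adjusted p = 0.23), neither called.

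Genes of muscle regeneration and the early response to stress were called in part. Of 21 regeneration genes 7 were in a described class (33.3%, against 17.2% of all genes), 5 of them higher in SJL/J quadriceps, and the list's medians were 0.62 in quadriceps and 0.37 in left ventricle. Igf2, a growth factor of developing and regenerating muscle, read 1769, 1885 and 2053 in SJL/J quadriceps, against 594, 799.8, 927.7, 916.3 and 523 in C57BL/6 quadriceps. The Igf2 probe set is marked as shared, and its left ventricle groups overlapped (difference 0.18, 95% interval -0.17 to 0.54). Cdkn1a, the cell cycle inhibitor p21 that marks cycle exit of myoblasts, differed by 1.65 ± 0.32 in quadriceps and -0.51 in left ventricle (95% interval -1.16 to 0.13). A second, dimmer Cdkn1a probe set gave 0.64 in quadriceps and -1.18 in left ventricle, the larger difference being in left ventricle. Neither the interaction of Igf2 (adjusted p = 0.255) nor that of Cdkn1a (0.238) was called with run as a random block. Of 20 immediate early genes 5 were higher in SJL/J quadriceps without a left ventricle call and 2, Ier2 and Ier3, were opposite. This put 35% in a described class, against 17.2% of all genes. Ier3, which protects cells from apoptosis, differed by 1.24 ± 0.26 in quadriceps and -1.07 ± 0.25 in left ventricle. Egr1, a zinc finger transcription factor, had an interaction of 1.32 ± 0.36, and its call was lost without SJL/J quadriceps array 3 and C57BL/6 quadriceps array 2 (1.27, adjusted p = 0.0511). Of 36 matrix genes 5 were higher in SJL/J quadriceps without a left ventricle call, 2 were lower in SJL/J left ventricle without a quadriceps call and 1 was opposite. This share of 22.2% is near the 17.2% of all genes, and the matrix medians were 0.39 and 0.04.

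**Figure D4:**
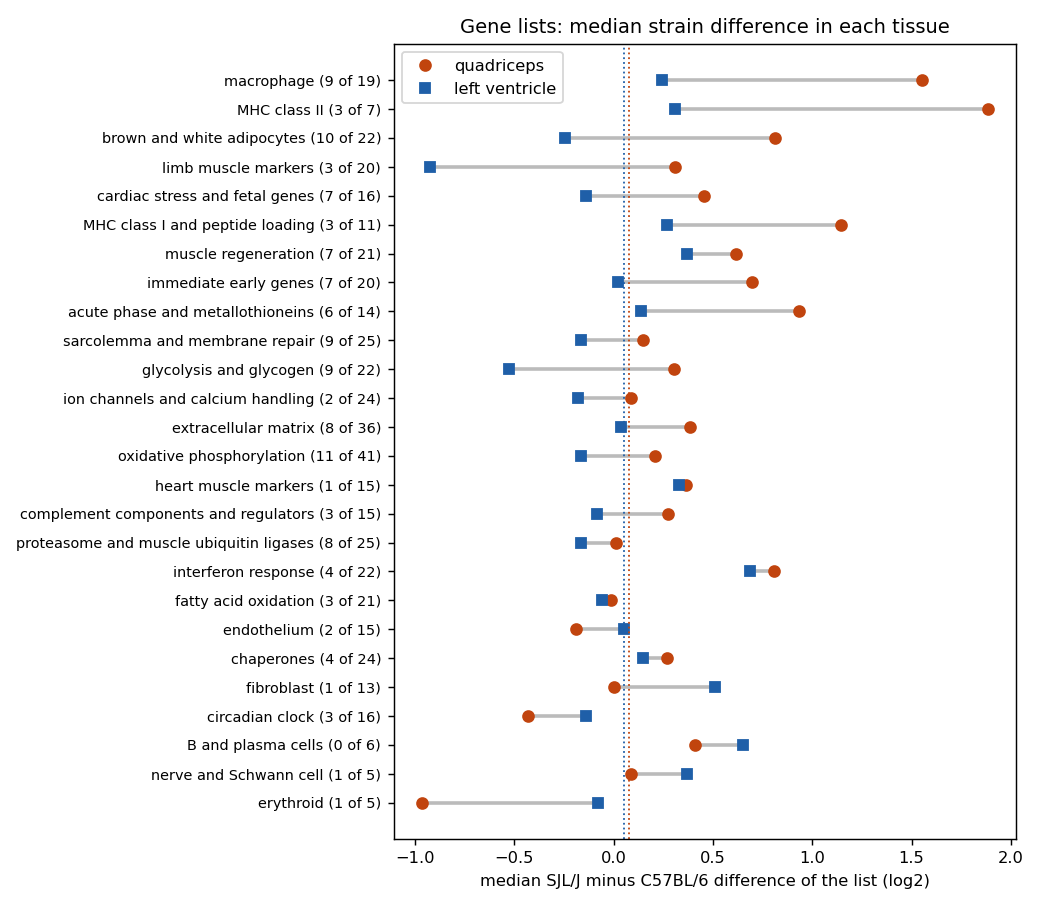
Median SJL/J minus C57BL/6 difference (log2) of the gene lists with at least 5 tested members, in quadriceps (circles) and left ventricle (squares), ordered by the median interaction, with the number of members in a described class. Dotted lines mark the medians of all 5551 genes, 0.08 and 0.05, and the macrophage list shows 1.55 in quadriceps and 0.24 in left ventricle.

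The genes lower in SJL/J quadriceps with no left ventricle call had a median difference of -0.82 over the 179, beside 1.11 over the 207 genes higher there. Vps35, the core of the retromer complex that returns cargo from endosomes, read 676.7, 780.7 and 779.7 in SJL/J quadriceps, against 2002, 1832, 2137, 2335 and 2377 in C57BL/6 quadriceps. Its left ventricle values were 1232, 1136, 1274 and 1341 in SJL/J, against 1426, 1434, 1337 and 1316 in C57BL/6. The quadriceps groups stood apart and the left ventricle groups overlapped, at differences of -1.52 ± 0.12 and -0.15 (95% interval -0.38 to 0.09). Within the run that holds arrays of both strains the quadriceps difference was -1.65. Dnaja2, a cochaperone of Hsp70, differed by -1.35 ± 0.15 in quadriceps and 0.16 in left ventricle (95% interval -0.14 to 0.46).

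Inmt, an enzyme that methylates indoles, read 7.1, 10.6 and 6.7 in SJL/J quadriceps, against 94, 115.4, 52.7, 114.5 and 127.5 in C57BL/6 quadriceps. In left ventricle Inmt read 63.9, 38.8, 97.9 and 128.8 in SJL/J, against 94.1, 120.9, 63.4 and 87.4 in C57BL/6. It was near the bottom of the signal range in SJL/J quadriceps alone among the 4 groups. The quadriceps difference was -3.60 ± 0.38, and the interaction of -3.35 ± 0.53 was not called with run as a random block (adjusted p = 0.0661). Bmp6, a bone morphogenetic protein that also regulates iron, differed by -2.45 ± 0.29 in quadriceps and 0.02 in left ventricle. A second, dimmer Bmp6 probe set had an interaction of the opposite sign, 0.93. Cd55, which protects cells from complement by dissolving its convertases, read 41.6, 30.1 and 17.4 in SJL/J quadriceps, against 145.1, 134.2, 137.1, 43.7 and 301 in C57BL/6 quadriceps. Under the random block for run, Bmp6 (adjusted p = 0.136) and Cd55 (0.324) had no called interaction. The lowest C57BL/6 value of Cd55 belongs to array 4, the only one in the run of the SJL/J arrays, and the difference within that run was -0.65 where the fit gave -2.20 ± 0.45.

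Among genes of opposite sign, those lower in SJL/J quadriceps and higher in SJL/J left ventricle included Pla2g7, Ces1d, Smad4 and Eed. Pla2g7, the phospholipase that cleaves platelet-activating factor, read 160, 148.9 and 225.6 in SJL/J quadriceps, against 744.9, 514.5, 734.8, 537.7 and 515 in C57BL/6 quadriceps. In left ventricle it read 72.6, 72, 74.4 and 100.8 in SJL/J, against 43.7, 37.7, 36.2 and 33.4 in C57BL/6. The groups stood apart in both tissues, at -1.78 ± 0.20 and 1.07 ± 0.19, with an interaction of -2.85 ± 0.27 (adjusted p = 6.4e-06). On the left-out left ventricle pair the difference was 0.86. Ces1d, a carboxylesterase that hydrolyses triglycerides, read 348.7, 266.6 and 190.5 in SJL/J quadriceps, against 955.2, 1101, 1147, 1250 and 595.9 in C57BL/6 quadriceps. It read 973.2, 802.7, 976.6 and 1228 in SJL/J left ventricle, against 561.1, 455.5, 595.7 and 404.1 in C57BL/6 left ventricle. Again neither tissue's groups overlapped, although the Ces1d probe set is marked as shared between related transcripts.

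Smad4, the common partner of the SMADs that carry TGF-beta and BMP signals, differed by -1.04 ± 0.16 in quadriceps and 0.88 ± 0.15 in left ventricle. Eed, a subunit of the Polycomb repressor PRC2, differed by -0.89 ± 0.11 and 0.59 ± 0.11. The RNA-binding proteins Syncrip (-0.76 ± 0.15 and 1.16 ± 0.15) and Lsm14a (-0.93 ± 0.15 and 0.90 ± 0.14) and the proteasome shuttle Ubqln2 (-1.08 ± 0.17 and 0.79 ± 0.17) followed the same pattern. On the left-out left ventricle pair these 5 genes differed by 0.21 to 0.73, on the same side of 0.

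The genes higher in SJL/J quadriceps and lower in SJL/J left ventricle included, beside Rrad and Mt1, Ctsd, Map1lc3a, S100a1 and Dlst. Ctsd, the lysosomal aspartyl protease cathepsin D, differed by 0.45 ± 0.14 in quadriceps and -1.35 ± 0.14 in left ventricle, and Map1lc3a, which coats autophagosomes, by 0.68 ± 0.16 and -1.43 ± 0.15. S100a1, a calcium sensor that enhances contraction of heart muscle, read 773.6, 881.6 and 786.5 in SJL/J quadriceps, against 416.7, 521.4, 421.5, 355.8 and 502.4 in C57BL/6 quadriceps. In left ventricle it read 1779, 1862, 1736 and 1416 in SJL/J, against 2744, 3579, 3384 and 3334 in C57BL/6. Its groups stood apart in both tissues, on a shared probe set. Of 25 genes of the sarcolemma and of membrane repair, the process in which dysferlin acts, 9 were in a described class. This share was 36%, against 17.2% of all genes. The 9 were 4 genes higher in SJL/J quadriceps, 2 lower in SJL/J left ventricle and 3 opposite (S100a1, Anxa5 and Capn1). Capn1, a calcium-activated protease, read 410.7, 409.5 and 484.5 in SJL/J quadriceps, against 259.8, 106.3, 154.1, 303.8 and 124.5 in C57BL/6 quadriceps, and was dim in left ventricle. Anxa5, a calcium-dependent membrane binder that assembles at membrane lesions, differed by 0.85 ± 0.18 and -0.53 ± 0.17, but by -0.05 on the left-out left ventricle pair. Anxa5 (adjusted p = 0.115) and Capn1 (0.253) had no called interaction with run as a random block. Dlst, a subunit of the citric acid cycle enzyme 2-oxoglutarate dehydrogenase, differed by 0.89 ± 0.15 in quadriceps and -0.88 ± 0.14 in left ventricle, but by 0.21 on the left-out left ventricle pair. A second Dlst probe set was lower in SJL/J in both tissues, by -0.28 in quadriceps and -1.94 in left ventricle. The opposite signs of Dlst thus rest on 1 probe set.

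The genes most clearly lower in SJL/J left ventricle included several subunits of mitochondrial oxidative phosphorylation. ATP synthase makes ATP from the proton gradient, to which cytochrome c oxidase, complex IV, contributes; Cox8b and Cox7a1 are the heart and muscle isoforms of complex IV subunits. The promoters of 2 ATP synthase genes of this group are shown, from RefSeq (GRCm38.p6), with matches on either strand to AAGGTCA (the extended site of oestrogen-related receptors), GCATGCGC (a core of the NRF1 site) and CCAAT in capitals. Atp5e lies at chr2:174464052-174464351 and Atp5l at chr9:44920693-44920992, both on the minus strand.
Atp5e: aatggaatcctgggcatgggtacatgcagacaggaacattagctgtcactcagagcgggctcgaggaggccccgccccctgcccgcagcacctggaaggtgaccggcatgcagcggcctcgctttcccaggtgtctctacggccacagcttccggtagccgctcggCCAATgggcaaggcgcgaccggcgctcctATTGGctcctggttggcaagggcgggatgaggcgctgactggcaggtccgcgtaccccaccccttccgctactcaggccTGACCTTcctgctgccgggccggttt
Atp5l: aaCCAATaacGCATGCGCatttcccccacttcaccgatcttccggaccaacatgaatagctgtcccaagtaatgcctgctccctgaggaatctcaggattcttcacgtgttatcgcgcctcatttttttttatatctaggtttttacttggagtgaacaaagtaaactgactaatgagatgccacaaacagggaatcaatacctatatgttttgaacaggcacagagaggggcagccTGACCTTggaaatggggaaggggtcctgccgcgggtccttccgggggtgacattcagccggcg
Atp5e holds 1 match to AAGGTCA and 2 to CCAAT. Atp5l holds 1 match to each of the 3 motifs. The window of Cox7a1 holds 2 matches to CCAAT and that of Cox8b 0 matches. Over all 32851 windows 4.72% hold AAGGTCA, 2.71% GCATGCGC and 37.4% CCAAT.

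Cox8b read 326.1, 361.9, 338.8 and 353.4 in SJL/J left ventricle, against 3803, 3922, 3833 and 4202 in C57BL/6 left ventricle. In quadriceps it read 3344, 3766 and 3821 in SJL/J, against 2426, 3179, 2907, 1392 and 3082 in C57BL/6. Among the 4 groups of the fit SJL/J left ventricle was thus the only one with low Cox8b signal. Left-out SJL/J quadriceps array 1, with heart RNA and a Gapdh ratio of 0.2675, read 252.5 for Cox8b and 111.3 for Atp5e. Left-out SJL/J quadriceps array 5, with a ratio of 0.4885, read 2850 and 1288. Array 1 also had a wash protocol that no other array of the series had. The reason for the difference between these arrays was not tested. The Cox8b difference was -3.51 ± 0.20 in left ventricle and 0.55 in quadriceps (95% interval 0.12 to 0.97). On the left-out left ventricle pair it was -3.50. The Cox8b probe set carries the suffix _r_at in place of the plain _at. A second one, with the plain suffix, gave -2.29 in left ventricle. Atp5e, the epsilon subunit of ATP synthase, read 200.5, 234.7, 188.4 and 103.8 in SJL/J left ventricle, against 1888, 1875, 2377 and 2029 in C57BL/6 left ventricle. Its quadriceps groups, 1887, 2992 and 2484 in SJL/J against 1648, 2108, 2186, 1486 and 2231 in C57BL/6, overlapped. The Atp5e interaction was 3.88 ± 0.32 (adjusted p = 1.02e-06), and the left-out pair differed by -3.47. The Atp5e probe set also lacks the plain suffix and ends in _i_at.

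Atp5l, the g subunit, was called in both tissues. It read 1061, 1307, 1015 and 873.6 in SJL/J left ventricle, against 6132, 6170, 5550 and 5858 in C57BL/6 left ventricle. In quadriceps it read 5533, 6578 and 6967 in SJL/J, against 3581, 4142, 4368, 4052 and 4698 in C57BL/6. The left-out pair differed by -2.47, where the fit gave -2.49 ± 0.14. A second, dimmer Atp5l probe set showed no such pattern (interaction -0.00). Cox7a1 read 910.6, 1186, 938.7 and 778.2 in SJL/J left ventricle, against 4040, 3865, 3843 and 4189 in C57BL/6 left ventricle, with overlapping quadriceps groups. Its left ventricle difference was -2.08 ± 0.17 in the fit and -2.21 on the left-out pair. Left-out SJL/J quadriceps array 1 read 687.7 for Atp5l and 626.7 for Cox7a1, and left-out array 5 read 4730 and 3173. Atp5k (-3.43) and Cox5b (-1.11) were also lower in SJL/J left ventricle, at -1.61 and -1.11 on the left-out pair. The Cox5b interaction was not called with run as a random block (adjusted p = 0.14). Most of the system did not pass the tests: 26.8% of it was in a described class, against 17.2% of all genes. Of 41 tested oxidative phosphorylation genes 7 were lower in SJL/J left ventricle without a quadriceps call (5.42% of all genes were). Another 2 were higher in SJL/J quadriceps, 1 was higher in SJL/J left ventricle and 1 (Atp5l) was opposite. The list's median difference was 0.21 in quadriceps and -0.16 in left ventricle.

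Outside energy metabolism, Fkbp8, an immunophilin of the outer mitochondrial membrane, read 41.4, 49.8, 39.6 and 23.8 in SJL/J left ventricle, against 297.9, 525.1, 579.2 and 621.3 in C57BL/6 left ventricle. Its quadriceps groups overlapped (difference 0.24, 95% interval -0.37 to 0.85), and the left-out pair differed by -3.32, where the fit gave -3.71 ± 0.28. Lgals1, a galectin that binds the glycans of the muscle surface, read 595.8, 690, 589.8 and 499 in SJL/J left ventricle, against 1936, 2112, 2128 and 2042 in C57BL/6 left ventricle. The Lgals1 difference was -1.80 ± 0.17 in the fit, -1.70 on the left-out pair and 0.15 in quadriceps. Lgals1 read 520.7 on left-out SJL/J quadriceps array 1 and 1544 on left-out array 5. Other genes were weaker on the left-out pair. Sdc4, a heparan sulphate proteoglycan of focal adhesions, differed by -3.52 ± 0.18 in the fit and -1.35 on that pair. Akt2, the kinase of insulin signalling, differed by -2.72 ± 0.24 and -0.47, and Stbd1, which tethers glycogen to membranes, by -2.16 ± 0.19 and -0.74. Both arrays of the pair carry limb muscle RNA, and Stbd1 was brighter in C57BL/6 quadriceps (mean 668.2) than in C57BL/6 left ventricle (118.4). On left-out SJL/J quadriceps arrays 1 and 5 Sdc4 read 19.2 and 165.9, Akt2 45.5 and 244.3, and Stbd1 546.5 and 495.5.

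Of 22 glycolysis and glycogen genes, which break down sugar for energy, 9 were in a described class (40.9%, against 17.2% of all genes). Of these 6 were lower in SJL/J left ventricle without a quadriceps call (5.42% of all genes were), and the list's medians were 0.30 in quadriceps and -0.52 in left ventricle. On the left-out pair the same list's median was 0.13, on the other side of 0. Both arrays of the pair carry limb muscle RNA, with summed limb marker signals of 57640 on the SJL/J and 40430 on the C57BL/6 array. Genes bright in limb muscle, as many of this list are, therefore cannot be compared there with the fit. Pfkm, the muscle phosphofructokinase, read 1044, 947.5, 821.7 and 462.1 in SJL/J left ventricle, against 2840, 3237, 3018 and 3234 in C57BL/6 left ventricle. Its difference was -1.97 ± 0.19 in left ventricle and -0.39 in quadriceps (95% interval -0.81 to 0.03), and the left-out pair differed by -0.89. Its interaction was not called with run as a random block (adjusted p = 0.126). Pfkl, the liver isoform, was opposite at 1.16 ± 0.20 in quadriceps and -1.06 ± 0.19 in left ventricle, but differed by 0.08 on the left-out pair. Of 21 fatty acid oxidation genes 3 were lower in SJL/J left ventricle without a quadriceps call, which is 14.3% in a described class, against 17.2% of all genes, with list medians of -0.01 and -0.06. Fabp3, the heart fatty acid binding protein, read 1497, 1431, 1159 and 703.3 in SJL/J left ventricle, against 4708, 4536, 4796 and 5153 in C57BL/6 left ventricle, and its quadriceps groups overlapped. Of 25 proteasome and ubiquitin ligase genes 4 were lower in SJL/J left ventricle without a quadriceps call (5.42% of all genes were). In that list 32% were in a described class, against 17.2% of all genes. Psmd13, a lid subunit of the proteasome, differed by -1.41 ± 0.15 in left ventricle. The heart muscle markers, taken as a list of 15, had 0 members in the left ventricle classes, and their summed signal was 81740 to 93530 in SJL/J left ventricle, against 71710 to 81620 in C57BL/6 left ventricle.

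Genes higher in SJL/J left ventricle were fewer than those lower there. Kpna2, an importin that carries proteins into the nucleus, read 1013, 1127, 1005 and 719.3 in SJL/J left ventricle, against 222, 245.6, 193.1 and 240.4 in C57BL/6 left ventricle. In quadriceps it read 108.8, 178.9 and 117.2 in SJL/J, against 116.1, 172.8, 121, 93 and 178.7 in C57BL/6. The left ventricle groups stood apart and the quadriceps groups overlapped. The Kpna2 difference was 2.09 ± 0.22 in left ventricle, 2.07 on the left-out pair and -0.01 in quadriceps (95% interval -0.48 to 0.47). Zfp30, a KRAB zinc finger protein, read 356.8, 391.2, 316.6 and 361.8 in SJL/J left ventricle, against 90.3, 87.4, 110.1 and 90.9 in C57BL/6 left ventricle, and 1.77 higher in SJL/J on the left-out pair (log2). Its quadriceps groups overlapped. Socs1, an inhibitor of cytokine signalling through JAK kinases, read 100.9, 67.3, 88.3 and 77.5 in SJL/J left ventricle, against 16.7, 19.4, 16.4 and 12.1 in C57BL/6 left ventricle. It differed by 2.37 ± 0.29 in left ventricle, 1.82 on the left-out pair and -0.15 in quadriceps (95% interval -0.78 to 0.48). With run as a random block the interactions of Kpna2 (adjusted p = 0.091) and Socs1 (0.0532) were not called.

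The left-out pair, SJL/J left ventricle 1 and C57BL/6 left ventricle 5, allowed the left ventricle differences to be read within 1 run and on arrays outside the fit of 16, with 1 array per strain and no test. Of the 301 genes lower in SJL/J left ventricle, 256 (85%) had the same sign on the pair, with a median of -0.46, where the fit gave -1.04. Of the 154 genes higher in SJL/J left ventricle, 142 (92.2%) had the same sign, with medians of 0.42 and 0.75. Over all tested genes 68.1% had the same sign as the fit. The sizes were thus smaller on the pair for most genes, while those of Cox8b, Atp5e, Atp5l, Cox7a1, Fkbp8, Lgals1, Kpna2 and Zfp30 were close to those of the fit. Both arrays carry limb muscle RNA, with Myh4 at 8512 on the SJL/J and 5568 on the C57BL/6 array, and their Gapdh ratios were 0.470 and 0.865.

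**Figure D5:**
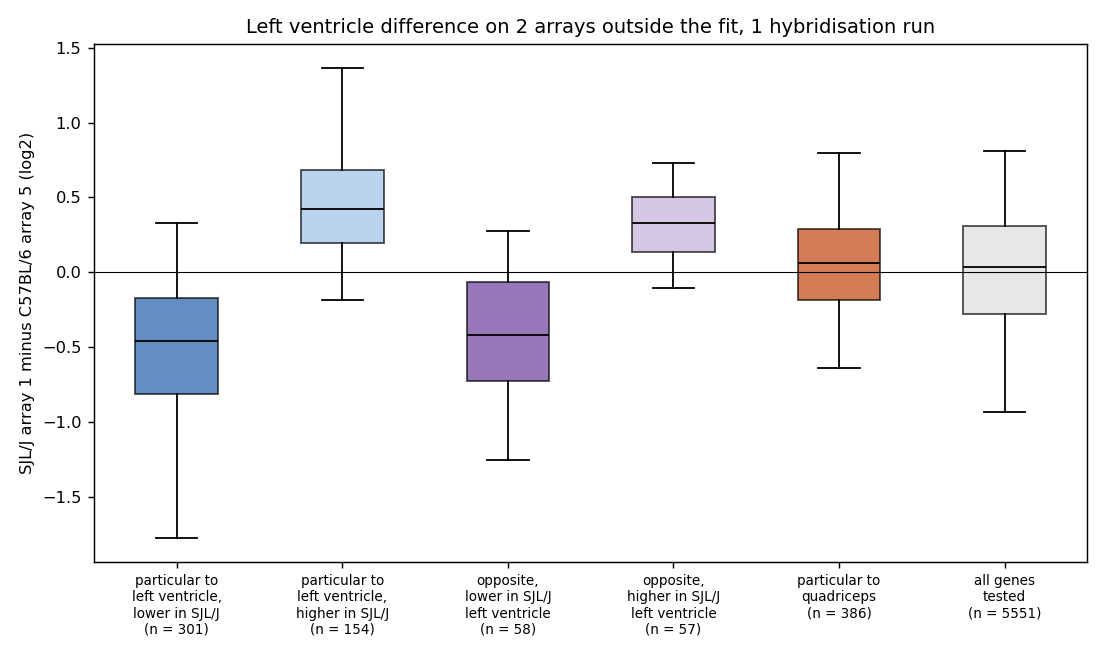
Distribution over genes of the SJL/J array 1 minus C57BL/6 array 5 difference in left ventricle (vertical axis, log2), 2 arrays of 1 run that were left out of the fit, by the class of the gene. Boxes show the median and quartiles, whiskers the 5th and 95th percentiles; the median is -0.46 for the 301 genes lower and 0.42 for the 154 genes higher in SJL/J left ventricle, beside 0.04 for all 5551 genes.

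RNA quality moved with the left ventricle comparison. With the log2 Gapdh ratio as a covariate the number of left ventricle genes was 145, against 455 without it, that of opposite genes 17, against 115, and that of quadriceps genes 318, against 386. With run as a random block 106 interactions were called, among them 72 quadriceps, 20 left ventricle and 3 opposite genes. In left ventricle the Gapdh ratios did not overlap between strains (0.101 to 0.335 in SJL/J, 0.697 to 0.866 in C57BL/6). Each strain was also 1 run there. These fits therefore cannot separate RNA quality or run from strain in left ventricle. The part of run and RNA quality in each difference was not tested. Limb muscle markers moved too: the summed signal of 20 such genes was 6918 to 10000 in SJL/J left ventricle, against 12090 to 14860 in C57BL/6 left ventricle. Of the 3 limb markers called in left ventricle alone, Myl1, a myosin light chain of fast fibres, had the largest difference. It was -2.99 ± 0.42 in the fit. On the left-out pair, where both arrays carry limb muscle RNA, Myl1 read 6367 in SJL/J and 5150 in C57BL/6, a difference of 0.31. The Myl1 interaction was not called with run as a random block (adjusted p = 0.204).

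Of 16 circadian clock genes 3 were in a described class, a share near that of all genes (18.8%, against 17.2%). Arntl, the activator BMAL1, read 127.3, 154.1 and 221.1 in SJL/J quadriceps, against 444.2, 390.5, 327.7, 247.3 and 203.7 in C57BL/6 quadriceps. Its left ventricle values were 278.8, 208.8, 289.3 and 258.2 in SJL/J, against 201, 184, 162 and 124.4 in C57BL/6. The quadriceps groups overlapped by 1 array each, and those of left ventricle stood apart in the other direction. The differences were -0.93 ± 0.25 and 0.64 (95% interval 0.13 to 1.14), and the interaction of -1.56 ± 0.34 was lost once chip lot entered the fit (-1.24, adjusted p = 0.0571). Clock, its partner, and the repressor Cry1 were higher in SJL/J left ventricle by 0.59 ± 0.20 and 0.50 ± 0.18. The interaction of Clock was lost without SJL/J quadriceps array 2 (-0.95, adjusted p = 0.051), and with chip lot in the fit it was -0.50 (adjusted p = 0.299), where the main value was -0.98. It was -0.69 with run as a random block (adjusted p = 0.555). That of Cry1 was lost without the same array (-0.85, adjusted p = 0.051), without SJL/J quadriceps array 3 (-0.76, adjusted p = 0.0719) or without C57BL/6 left ventricle array 4 (-0.77, adjusted p = 0.0571). The labels do not state the hour at which tissue was taken.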

How the data were processed

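The members and gene lists were chosen with earlier results of these data known. The deposited intensity values are linear, with 1 value for each probe set of an array, and were scaled by the authors to a common target: trimmed means were 199.4 to 199.9 and 0 values were negative. The probe summary and background correction are not stated by the labels. Per the labels' protocols, 8 µg of total RNA was labelled per sample. Hybridisation run (5 in all), chip lot and wash protocol come from the experiment reports, per the file headers, with a gap of over 10 minutes starting a run. The arrays hold 12488 probe sets. Among these, 66 are controls, and the platform annotation gives 10833 a single gene symbol, 396 several and 1193 none; 10817 symbols matched a RefSeq gene table (GRCm38.p6) and 0 changed.

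Before log2, a floor was set at the 5th percentile of all values (3.1). The brightest probe set of each gene was kept where its mean passed the median signal (67.5) in at least 1 group, leaving 5551 genes. Of the described genes, 147 had 172 other tested probe sets, of which 127 had the same sign of interaction. A like sign does not show that the difference lies in the same tissue. All 4 groups entered 1 fit in limma 3.58.1 (R 4.3.3; lmFit, eBayes with trend). Positive values mean higher in SJL/J or, in the interaction, a higher difference in quadriceps; errors are standard errors unless marked SD. Calls were Benjamini-Hochberg adjusted p under 0.05. Whether arrays within a group are separate mice rests on the labels' 5 mice per group, and their number limits precision.

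The rule for named genes took, among interactions of at least 1 in size, the 10 smallest p in each quadriceps direction and the 8 in each direction of the other classes, up to 4 class members per list, and the clock and complement members in a class; the text gives examples. Fasn, Lipe, Egr1, Atp5k and Cox5b were chosen after their values were seen. The reading of the left-out left ventricle pair, the quadriceps difference within 1 run and the fit without 2 arrays of low Gapdh ratio were also added then. Figures used matplotlib 3.10.9 and pandas 2.3.3 under Python 3.11.15.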

Additional observations from a re-analysis of the deposited data

Results flagged for a closer look

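The interaction was called for 1113 genes, which is a test of the difference between the 2 tissues' strain differences. The left-out SJL/J quadriceps arrays 1 and 5 carried Tnnt2 signals of 8979 and 9896, far above the 32.4 to 546.3 of the C57BL/6 quadriceps arrays.

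In 312 checks for a lone high or low array over the 104 named genes, 11 were met, where chance gives about 1 in 20. In C57BL/6 quadriceps array 4 stood alone for Des (1526), Pgam2 (13380), S100a13 (651.6) and Vldlr (88.0), array 2 for Rrad (204.8) and array 5 for Lgals1 (1499). In SJL/J left ventricle array 5, with the lowest Gapdh ratio of all, stood alone for Cd68 (68.0), Etfb (1498) and Pla2g7 (100.8). In C57BL/6 left ventricle array 4 stood alone for Cdkn1a (186.6) and array 3 for Zfp30 (110.1).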

How the results depend on the processing

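The counts of called interactions and of quadriceps, left ventricle and opposite genes were 1113, 386, 455 and 115. They stayed within 1.5 times under another floor, log2(value + 32), quantile normalization, median centring, 2 other filters, the mean of probe sets and a fit without trend. Median centring gave 49.3% of calls as higher, where the main setting gave 57.7%. Beyond 1.5 times were the following counts. All 20 arrays gave 288 left ventricle and 73 opposite genes. Without SJL/J quadriceps 3 and C57BL/6 quadriceps 2 there were 231 quadriceps and 52 opposite genes. Without SJL/J left ventricle 5 and C57BL/6 quadriceps 4 there were 1736 interactions, 679 quadriceps and 248 opposite genes. Array weights gave 1886 interactions, 828 left ventricle and 296 opposite genes. The Gapdh covariate gave 145 left ventricle and 17 opposite genes, and run as a random block gave 106, 72, 20 and 3. Leaving out 1 array at a time gave 846 to 1811 interactions, 255 to 600 quadriceps, 316 to 705 left ventricle and 67 to 279 opposite genes, each highest without C57BL/6 quadriceps 4. The causes were not tested. Run as a fixed block could not be fitted for the interaction.

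Residuals of same-numbered quadriceps and left ventricle arrays of a strain correlated between -0.068 and 0.057. Those of differently numbered arrays correlated between -0.180 and 0.167. With so few arrays per group this cannot decide whether same-numbered arrays come from the same mouse. With a replicate block 751 interactions were called, with 278 left ventricle and 64 opposite genes, and with a replicate block by strain and number 692.

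Of the 104 named genes, 42 were called under every alternative, and 1 reversed: Mbp with all 20 arrays (0.26, adjusted p = 0.625), which was also lost without C57BL/6 quadriceps 5 (-0.08, adjusted p = 0.917). With run as a random block 57 lost their call. Of genes described in the report, Sdc4, Akt2, Pfkm, Capn1, Bmp6, Fasn, Cox5b, Myl1, Clock and Cry1 lost it with all 20 arrays, Fabp3, Cd74, Lipe, Egr1 and Cry1 with the Gapdh covariate, and Arntl, Cd55, Clock, Cry1 and Lipe with chip lot in the fit. Under the random block for run Arntl, Clock, Cry1, Ier2, Fasn, Lipe and Egr1 lost it too, beside those named there. Probe sets near the floor, such as Ucp1 in C57BL/6 quadriceps or Inmt in SJL/J quadriceps, limit how far their differences can be read.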

Other observations

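Of 16 cardiac stress and fetal genes 7 were in a described class (43.8%, against 17.2% of all genes): 4 were higher in SJL/J quadriceps, 2 were lower in SJL/J left ventricle and 1 was opposite. They include Ankrd1, Mt1 and Mt2, which other lists hold too, and the list's medians were 0.46 in quadriceps and -0.14 in left ventricle. Of 11 genes of MHC class I and peptide loading 3 were higher in SJL/J quadriceps without a left ventricle call. This put 27.3% in a described class, against 17.2% of all genes, with medians of 1.14 and 0.27. Of 24 ion channel and calcium handling genes 2 were in a described class (8.33%, against 17.2% of all genes), both lower in SJL/J quadriceps, and of 13 fibroblast genes 1 was. Of 3 tested T and NK cell genes and 6 B and plasma cell genes, 0 were in a described class. Chaperones gave 4 of 24 (16.7%), among them Hspb8, a small heat shock protein that works with Bag3 in clearing damaged muscle protein. It read 1144, 928.9, 1158 and 559.5 in SJL/J left ventricle, against 1657, 2455, 2325 and 2194 in C57BL/6 left ventricle, without overlap. Its difference was -1.23 ± 0.23 in left ventricle and 0.64 in quadriceps (95% interval 0.13 to 1.14), and its interaction was not called with run as a random block (adjusted p = 0.178).

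Of 15 complement genes 3 were in a described class, C1qa, C1qc and Cd55, a share of 20% beside 17.2% of all genes. Ifit2, an interferon-induced RNA-binding protein, was lower in SJL/J quadriceps and higher in SJL/J left ventricle. It read 6.1, 6.6 and 6.3 in SJL/J quadriceps, against 19.4, 26.4, 10.2, 15.6 and 26.3 in C57BL/6 quadriceps, all of them dim. In left ventricle it read 102, 118.7, 100.5 and 220.1 in SJL/J, against 66.5, 25.5, 73.5 and 27.2 in C57BL/6. Its interaction of -3.12 ± 0.63 was lost with all 20 arrays (adjusted p = 0.0818) and with run as a random block (adjusted p = 0.212).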
